A study of Mus musculus with 22 samples.

Results

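The MHC class I antigen presentation pathway was examined in brain cells of mouse pups through 9 genes: H2-K1, H2-D1, B2m, Tap1, Tap2, Tapbp, Psmb8, Psmb9 and Nlrc5. They were chosen by name and not by a rule on their values, but with earlier results of these data known. All 9 were listed among the 56691 genes of the deposited counts. Total RNA of cells enriched from whole brain with CD11b beads was sequenced from 20 CF-1 wildtype pups of 10 litters, with 4 animals in each of 5 groups. In the HIE model (hypoxic-ischemic encephalopathy), the dam received the bacterial product LPS late in gestation and the pups went through a short, severe hypoxia in the first postnatal week. HIE pups were collected on P7 (litters N5 and N8, 4 males) and P14 (litters P4H1 and P6H12, both sexes), controls at the early stage (litters P6H63 and P6H55, each with 1 male and 1 female) and on P14 (litters P4H4 and P6H8), and a group labelled hypoxia on P14 (litters P6H7 and P6H9). The methods give P7 for the early controls, while their labels give days 8 and 9 for litter P6H63 and days 10 and 11 for litter P6H55. They are called P7 controls here. The methods do not describe the hypoxia group. CF-1 is an outbred stock, so that pups of this study need not carry the same alleles, and litter was read from the animals' names.

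MHC class I molecules show peptides from inside the cell to CD8+ T cells. A heavy chain (H2-K1 or H2-D1 in the mouse) pairs with beta-2 microglobulin (B2m), and the pair is loaded in the endoplasmic reticulum with peptides that the transporter Tap1/Tap2 brings in and that tapasin (Tapbp) helps to fit. Many of those peptides are cut by the immunoproteasome, whose subunits Psmb8 and Psmb9 replace constitutive ones, and Nlrc5 is the transactivator that switches class I genes on together, in microglia as in other cells, in response to interferons. Microglia of the healthy brain are known to carry little class I and to gain it in inflammation.

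The promoters of the genes that encode the class I molecule itself are shown first, because elements of these promoters are known to take part in the induction of class I genes. The sequences come from RefSeq (table built on GRCm38.p6, which holds 7 of the 9 members) and were placed on GRCm39 by an exact match. Each line gives the 180 bases before an annotated start site, 5′ to 3′ on the gene's strand, for H2-K1 at chr17:34219308-34219487 (minus strand), H2-D1 at chr17:35481890-35482069 (plus strand) and B2m at chr2:121977988-121978167 (plus strand). Capitals mark matches to the motifs searched on both strands: GGG and TTCCC parted by 2 bases (NF-kB), TTTCNNTTTC (interferon-stimulated response element) and a shorter form with 1 base less, TTTCNNTTC, which were counted apart, TGACG (core of the X2 box) and CCAAT (Y box, ATTGG on the other strand).
H2-K1: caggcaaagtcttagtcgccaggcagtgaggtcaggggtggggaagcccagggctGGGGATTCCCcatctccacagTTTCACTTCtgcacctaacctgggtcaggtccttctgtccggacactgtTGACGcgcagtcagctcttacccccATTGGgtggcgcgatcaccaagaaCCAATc
H2-D1: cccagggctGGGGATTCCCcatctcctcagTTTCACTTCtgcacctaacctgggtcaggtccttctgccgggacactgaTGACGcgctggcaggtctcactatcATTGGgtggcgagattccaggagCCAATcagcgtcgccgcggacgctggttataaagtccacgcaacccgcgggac
B2m: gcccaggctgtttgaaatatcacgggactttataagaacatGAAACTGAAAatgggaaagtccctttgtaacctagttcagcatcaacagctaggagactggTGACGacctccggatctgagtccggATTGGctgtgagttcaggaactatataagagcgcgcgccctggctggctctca
Both heavy chain genes held the NF-kB motif, the shorter interferon element, TGACG and CCAAT in the same order, and the RefSeq windows of H2-K1 and H2-D1, from 250 bases before to 50 after the start, were 70.9% identical over the 254 bases that overlapped at the best ungapped offset. B2m held the longer interferon element, TGACG and CCAAT. Of all 32851 windows of that length, 1.75% held the NF-kB motif, 3.44% the longer and 7.52% the shorter interferon element, 20.8% TGACG and 37.4% CCAAT. Among the other members with a window, TGACG was in those of Tap1 and Psmb9 and CCAAT in those of Tap1, Tapbp and Psmb9, while that of Psmb8 held none of these letters. Matches are a description of the letters and no measure of binding.

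Of the members, 7 lie on mouse chromosome 17 in the H2 region, from Tapbp at chr17:34134873-34148267 to H2-D1 at chr17:35481691-35486475 (GRCm39, GENCODE M39, whole gene spans). H2-K1 lies at chr17:34214987-34219321, Psmb9 at chr17:34400960-34406738, Tap1 at chr17:34405996-34416199, Psmb8 at chr17:34416690-34420428 and Tap2 at chr17:34422501-34435829. B2m (chr2:121977957-121983594) and Nlrc5 (chr8:95160984-95253900) are outside it. Psmb9 and Tap1 overlap at their 5′ ends on opposite strands, and whether the counting used strand is not given in the sources used here. Of the distinct 100-base stretches of their annotated transcripts, 2.03% for H2-K1 and 2.53% for H2-D1 also occurred in a transcript of another gene, among them H2-Q10, H2-Q4 and H2-K2 for H2-K1 and H2-Q1, H2-T9 and H2-T23 for H2-D1, so that the division of reads among class I genes depends on the counting. The share was 12.2% for Tapbp, with Zbtb22 and D330050I16Rik, and 0 for the other 6 members.

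Levels are given as CPM, counts scaled to library size with factors computed over the 20 animals, and levels of different genes are ranked only as CPM per kilobase of exon. On that per-length scale B2m was the highest member, with a median of 213 over the 20 animals, followed by H2-D1 at 65.3, Tapbp at 35.1, H2-K1 at 9.32, Psmb8 at 8.03, Tap2 at 7.08, Tap1 at 4.09, Psmb9 at 2.14 and Nlrc5 at 0.418. H2-D1 exceeded its fellow heavy chain gene H2-K1 in the medians, and B2m exceeded both. The library totals were 70191584 to 83469067 counts for the P7 animals and 29751540 to 46404123 for the P14 libraries, and the lowest count of any member in any animal was 93, for Nlrc5. P-values here measure the spread between these animals, and each group held 2 pairs of littermates. The pups of a litter shared their treatment. Except where litter was fitted, littermates were counted as independent, so that these p-values do not measure the spread between litters.

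The P7 controls differed from the P7 HIE animals in markers of several cell types. In the P7 controls of litter P6H63, 11 microglial marker genes (P2ry12, Tmem119, Cx3cr1 and others) summed to 1378 and 2192 CPM, against 13150 and 15011 CPM in the other P7 control litter, P6H55, and 16895 to 19313 CPM in the P7 HIE animals. Their 8 astrocyte markers summed to 4354 to 5208 CPM against 1424 to 2022 CPM in P6H55, and their 10 endothelial markers to 1925 to 2475 CPM against 968 to 972 CPM. In the microglial sum all 4 controls, litter P6H55 included, were below all 4 HIE animals. All 4 controls, litter P6H55 included, were above all 4 HIE animals in 3 marker sums: choroid plexus (4030 to 10032 CPM, with P6H55 at 4192 to 4713, against 1339 to 2392 CPM in HIE), mural cells (503 to 1252 against 365 to 491 CPM) and endothelial cells (968 to 2475 against 691 to 917 CPM). The part of these differences in the P7 results was not tested, and leaving out P6H63 does not remove them. Markers of T, NK and B cells summed to at most 15.7 CPM in any animal. In bulk samples, fewer cells of a type and less RNA per cell cannot be told apart, and the P7 differences between HIE and control are given with and without litter P6H63.

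The comparison of HIE with control on P7 asked how class I genes stood soon after hypoxia. All 9 members had a higher mean in HIE than in control, with a median log2 fold change of 0.66 against -0.08 over the 22517 genes tested, but none of the 9 passed an adjusted p-value of 0.05 in edgeR's quasi-likelihood test, where 15 genes did (0.0666%). At an unadjusted p-value under 0.05 there were 3 members and 6143 genes. Every HIE animal was above every control for 3 members, H2-K1, B2m and Psmb8, a pattern that 9.46% of all genes tested showed.

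**Figure D1:**
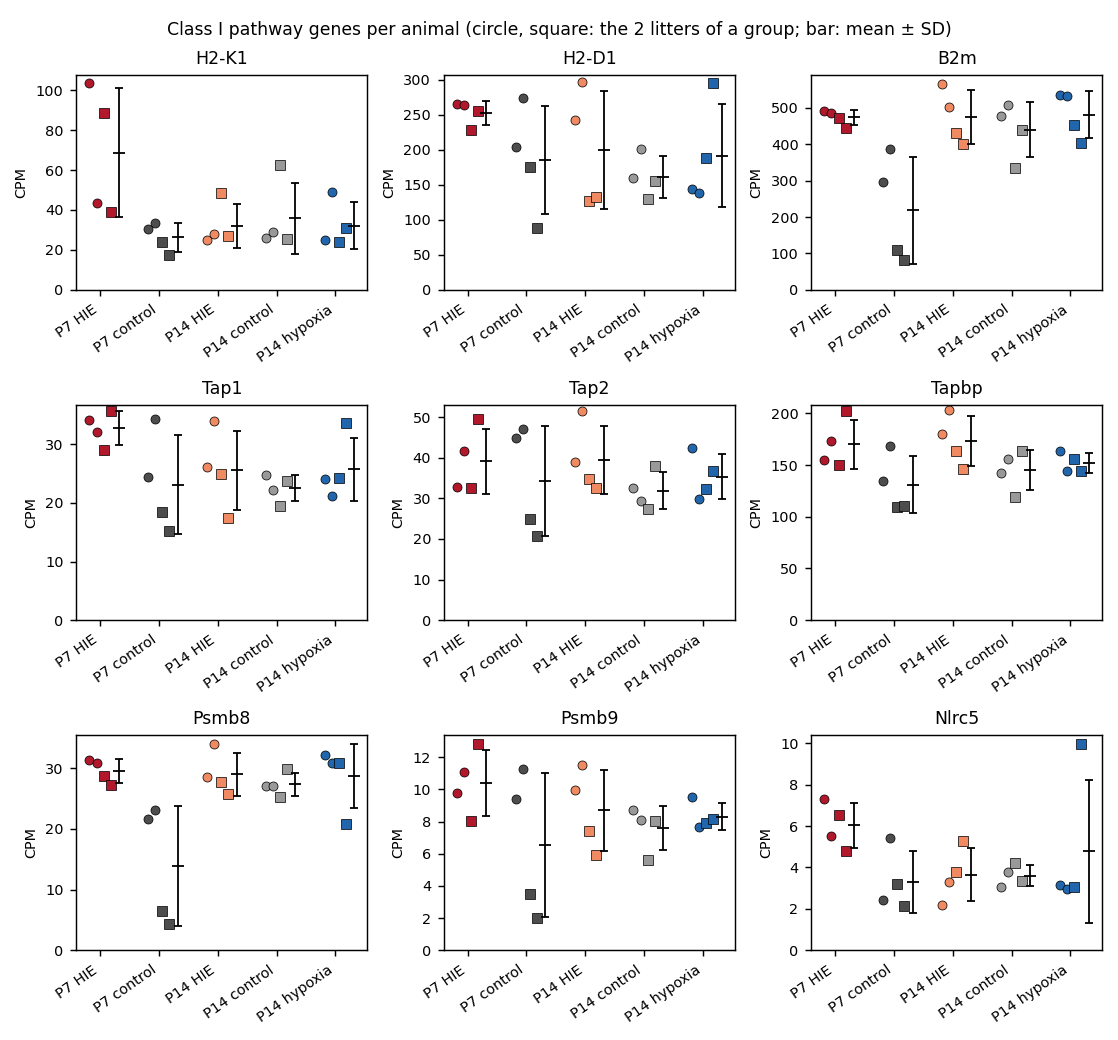
CPM of each of the 9 members (vertical axes, from 0) in the 4 animals of each of the 5 groups; circles and squares are the 2 litters of a group, and black bars are the group mean ± SD. In H2-K1, B2m and Psmb8 all 4 P7 HIE animals lie above all 4 P7 controls, and the P7 control squares, litter P6H63, are the lowest points of B2m, Psmb8 and Psmb9.

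Among the heavy chains, H2-K1 was measured at 103.5 and 43.5 CPM in the HIE litter N5 and at 88.3 and 38.8 CPM in N8, against 30.3, 33.5, 24.1 and 17.2 CPM in the controls. The group means were 68.5 ± 32.3 and 26.3 ± 7.19 CPM (SD, n = 4 each), and the groups did not overlap, although both HIE litters held one high and one lower animal. Its log2 fold change was 1.38 (SE 0.37, adjusted p = 0.150 by edgeR). H2-D1 was at 265.5, 263.9, 227.9 and 254.8 CPM in HIE and at 204.0, 274.2, 175.9 and 88.8 CPM in control, so that the groups overlapped. Its log2 fold change was 0.45 (SE 0.30, adjusted p = 0.333 by edgeR).

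B2m, the light chain that every class I heavy chain needs at the surface, was at 491.3, 485.7, 472.1 and 445.9 CPM in HIE. The controls had 295.6 and 387.8 CPM in litter P6H55 and 109.3 and 83.1 CPM in litter P6H63. All HIE animals were above all controls, the HIE animals lay within a narrow band and the control litters lay far from each other. The log2 fold change was 1.10 (SE 0.48, adjusted p = 0.182 by edgeR).

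The peptide transporter and its loading partner differed less than H2-K1 and B2m. Tap1 was at 34.2, 32.2, 29.1 and 35.7 CPM in HIE and at 24.4, 34.4, 18.4 and 15.2 CPM in control, with one control inside the HIE range, and a log2 fold change of 0.51 (SE 0.25). Tap2 was at 32.8, 41.6, 32.5 and 49.4 CPM in HIE and at 45.0, 47.0, 24.8 and 20.6 CPM in control, with a log2 fold change of 0.18 (SE 0.31), the smallest of the 9. For Tap2 the P6H55 controls were as high as the HIE animals. Tapbp, the most abundant of these 3 per length, ranged from 150.2 to 202.5 CPM in HIE and from 109.8 to 168.4 CPM in control, with a log2 fold change of 0.38 (SE 0.18). The adjusted p-values in edgeR's test were 0.217 for Tap1, 0.696 for Tap2 and 0.204 for Tapbp.

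Of the immunoproteasome subunits, Psmb8 was at 31.3, 30.8, 28.7 and 27.2 CPM in HIE, against 21.7 and 23.1 CPM in the P6H55 controls and 6.41 and 4.37 CPM in the P6H63 controls. The groups did not overlap, and the log2 fold change was 1.07 (SE 0.52, adjusted p = 0.212 by edgeR). Psmb9 was at 9.75, 11.1, 8.02 and 12.9 CPM in HIE, 9.41 and 11.3 CPM in P6H55 and 3.52 and 2.02 CPM in P6H63. Here the P6H55 controls lay inside the HIE range, and the log2 fold change was 0.66 (SE 0.52, adjusted p = 0.391 by edgeR). The ratio of Psmb8 to the constitutive subunit it replaces, Psmb5, was 1.17 to 1.47 in the HIE animals (CPM over CPM, with no scaling to length, so that it sets animals and not the 2 genes side by side) and 0.158 to 1.02 in the controls, where both P6H63 animals were lowest. Psmb5 itself was at 21.0 to 23.3 CPM in HIE and 22.8 to 27.7 CPM in control, so that the ratio followed Psmb8.

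Nlrc5, the least abundant member, was at 7.30, 5.50, 6.52 and 4.82 CPM in HIE and at 2.44, 5.43, 3.20 and 2.14 CPM in control. One control, P6H55-7, lay inside the HIE range and the other 3 below it. The log2 fold change was 0.88 (SE 0.31, adjusted p = 0.153 by edgeR).

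The size of these differences depended on the control litter. Without litter P6H63 the log2 fold changes were 1.08 for H2-K1 (SE 0.41), 0.60 for Nlrc5 (SE 0.32), 0.45 for B2m (SE 0.12) and 0.38 for Psmb8 (SE 0.08), and between -0.25 for Tap2 and 0.15 for Tapbp for the other 5, with no member passing the test and 26 genes called in all. Of the 9 members, 7 were then above 0, with a median of 0.15, and 3 had an unadjusted p-value under 0.05 by edgeR, as did 3838 genes. Without litter P6H55 they were 0.71 to 2.54, all 9 members passed, and so did 13904 of 23780 genes. Leaving out the single control P6H55-7 gave 5 members (H2-K1, B2m, Tap1, Tapbp and Nlrc5) and 5588 of 23060 genes. DESeq2 called H2-K1 (adjusted p = 0.0107) and Nlrc5 (adjusted p = 0.0488) and 3024 of 22517 genes with all 8 animals. A fit with litter as a random block (limma-voom) called no member and 3 genes, and its estimate of the correlation between littermates was 0.67. The part of the lower microglial markers of the controls, lowest in litter P6H63, in these differences was not tested. H2-K1 had the largest difference of the 9 when that litter was left out. With the sex label as a covariate, since all HIE animals were male and 2 of the 4 controls female, no member passed, and the log2 fold changes of H2-D1, Tap1 and Nlrc5 were 0.19 (SE 0.35), 0.33 (SE 0.31) and 0.50 (SE 0.30), while the other 6 moved by less than 1.5 times.

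**Figure D2:**
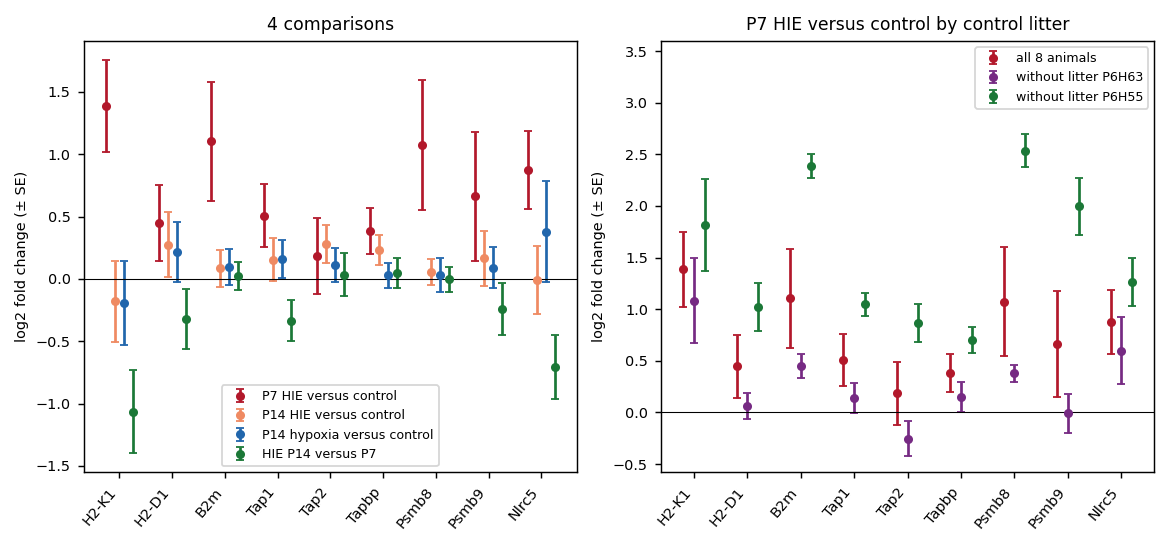
Log2 fold changes of the 9 members with their standard errors (vertical axes) in 4 comparisons (left) and, for P7 HIE versus control, with all 8 animals, without control litter P6H63 and without control litter P6H55 (right). Without P6H63, H2-K1 stays at 1.08 while Psmb9 and Tap2 come to -0.01 and -0.25; without P6H55 every member lies at 0.71 or above.

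The 2 animals of P6H63 had the lowest microglial marker sums of all 20 and the 2 lowest levels of B2m, Tap2, Tapbp, Psmb8 and Psmb9. P6H63-8 was also the lowest of the 20 in H2-K1, H2-D1, Tap1 and Nlrc5. The highest H2-K1 values, 103.5 and 88.3 CPM, came from N5-3 and N8-3, whose marker sums of 18181 and 16895 CPM were exceeded by most P14 animals.

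**Figure D3:**
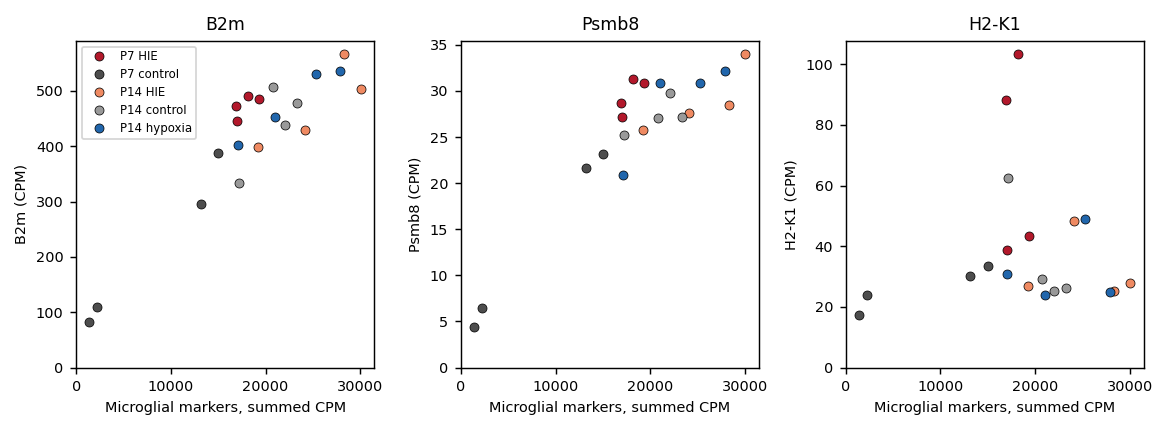
CPM of B2m, Psmb8 and H2-K1 (vertical axes) against the summed CPM of 11 microglial marker genes (horizontal axes), one point for each of the 20 animals, coloured by group. The 2 P6H63 controls, at sums of 1378 and 2192 CPM, are the lowest points for B2m and Psmb8, and the 2 highest H2-K1 points lie at sums of 18181 and 16895 CPM.

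Between the litters of one group, the P7 animals differed in 5 members by a joint test of both litter pairs (edgeR quasi-likelihood F test): Psmb8 (adjusted p = 0.000262), B2m (0.000328), Psmb9 (0.00443), Tap2 (0.0102) and Tap1 (0.0148). Of all 24259 genes, 37.3% passed the same test. H2-K1 (0.435), Nlrc5 (0.390), H2-D1 (0.0665) and Tapbp (0.0639) did not pass. The difference between litter means in the controls was 2.07 on the log2 scale for Psmb8, 1.93 for Psmb9 and 1.83 for B2m, against 0.15, 0.04 and 0.09 in the HIE litters. The gap thus lay between P6H63 and P6H55, and 4.30%, 5.52% and 6.89% of 15011 genes with a mean of at least 2 CPM had a control litter gap of at least that size. These control litters also differ in their labelled days, and litter and labelled day cannot be told apart.

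On P14 none of the 9 members passed in any of the 3 comparisons. HIE against control had log2 fold changes from -0.18 for H2-K1 (SE 0.33) to 0.28 for Tap2 (SE 0.15), with H2-D1 also at 0.28 (SE 0.26), and 1 of 20934 genes was called (0.00478%). Hypoxia against control ranged from -0.19 for H2-K1 (SE 0.34) to 0.38 for Nlrc5 (SE 0.41), and 2 of 20953 genes were called (0.00955%). HIE against hypoxia ranged from -0.40 for Nlrc5 (SE 0.44) to 0.18 for Tapbp (SE 0.11), with 2 of 20949 genes called (0.00955%). HIE and hypoxia were both set against the same 4 controls, and without the control P6H8-7M, which had the highest H2-K1 on P14, both H2-K1 values turned positive (0.24 and 0.23). At an unadjusted p-value under 0.05 no member passed in these comparisons, against 2066, 1996 and 948 genes, and DESeq2 called no member either, among 490, 164 and 15 genes.

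The P14 levels of B2m were 566.7, 503.4, 429.7 and 399.3 CPM in HIE, 477.6, 507.7, 333.8 and 438.8 CPM in control and 536.1, 531.6, 453.2 and 402.9 CPM in hypoxia, which overlap throughout. Psmb8 was at 25.8 to 34.0 CPM in HIE, 25.3 to 29.8 CPM in control and 30.8 to 32.1 CPM in 3 hypoxia animals, with the fourth, P6H9-15F, at 20.9 CPM. Tap1, Tap2, Tapbp and Psmb9 also overlapped between every pair of P14 groups. Nlrc5 was at 2.21 to 5.29 CPM in HIE and 3.05 to 4.19 CPM in control, and in hypoxia at 2.98, 3.06 and 3.13 CPM in 3 animals and at 9.97 CPM in P6H9-15F, the animal with the lowest Psmb8. Without that animal, the hypoxia difference in Nlrc5 was -0.27 in place of 0.38.

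The joint test of litters on P14 called 23 of 22887 genes (0.100%) and none of the members. H2-D1 came closest (adjusted p = 0.0931 by edgeR over 6 litters). With the filter on low counts left out, the same test called 5018 of 37197 genes and 4 members, H2-K1, H2-D1, B2m and Nlrc5. The adjusted p of H2-D1 by edgeR was then 2.1e-18, with no other setting changed.

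From P7 to P14 the HIE animals had less H2-K1 and Nlrc5. The P7 HIE animals were all male, those of P14 were of both sexes, and sex was not fitted in this comparison. H2-K1 fell by 1.06 on the log2 scale (SE 0.33, adjusted p = 0.0230 by edgeR), with values of 38.8 to 103.5 CPM on P7 and of 25.1, 28.0, 48.4 and 26.9 CPM on P14, and one P14 animal, P6H12-11M, lay inside the P7 range. Nlrc5 fell by 0.71 (SE 0.26, adjusted p = 0.0446 by edgeR), also with overlap. The other 7 members lay between -0.34 (Tap1, SE 0.17) and 0.05 (Tapbp, SE 0.12), while 46.0% of 22579 genes passed, so that 2 of 9 members is a smaller share than that of all genes. Both calls depended on single animals: H2-K1 was lost on leaving out any of 5 of the 8 animals and Nlrc5 on leaving out any of 6, with edgeR adjusted p-values of up to 0.0664 and 0.111. Leaving out P4H1-1M, P4H1-6F, N5-3 or N8-3 ended both calls, P6H12-14F that of H2-K1, and P6H12-11M or N5-4 that of Nlrc5; without P4H1-6F, H2-D1 and Tap1 passed in their place. With litter as a random block (limma-voom), H2-K1 did not pass (adjusted p = 0.121) and Nlrc5 did (adjusted p = 0.0493), and with scaling by library size alone Nlrc5 did not (edgeR adjusted p = 0.0648).

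In the controls, where 33.0% of 22320 genes passed between P7 and P14, no member did. Psmb8 was higher in every P14 control (25.3 to 29.8 CPM) than in every P7 control (4.37 to 23.1 CPM), as 16.3% of the genes tested were, with a log2 fold change of 1.04 (SE 0.52). B2m was next to it at 1.07 (SE 0.48), H2-K1 was at 0.53 (SE 0.35) and H2-D1 lowest at -0.13 (SE 0.31). Without litter P6H63, the control differences of B2m and Psmb8 between the ages were 0.41 (SE 0.19) and 0.33 (SE 0.12). Tap2, lower on P14, was then the 1 member called, among 6920 of 22151 genes. Without litter P6H55, 6 members were called, among 13390 of 22690 genes. The stages were counted in separate files with different depth, and age and file cannot be told apart.

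The difference between the HIE effects of the 2 stages was tested directly, and no member passed, with 1 of 24693 genes called (0.00405%). Sex was not fitted in this test either. H2-K1 had the largest value, an HIE effect that was 1.56 higher on P7 than on P14 (log2, SE 0.53, unadjusted p = 0.00968, adjusted p = 0.217 by edgeR). B2m and Psmb8 followed with 1.01 each (SE 0.51 and 0.55) and Nlrc5 with 0.88 (SE 0.42), and Tap2 was lowest at -0.10 (SE 0.36). Without litter P6H55, 6 members and 7771 of 26211 genes passed. Without litter P6H63 no member and no gene did, with 2247 genes at an unadjusted p-value under 0.05 in edgeR.

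Within litters, H2-K1 varied more than the other members. Its level differed by 0.75 or more on the log2 scale between the littermates of 5 of the 10 litters, and the median littermate difference was 0.66, a size that 1.21% of 15011 genes reached, where the median gene had 0.16. The littermates were at 103.5 and 43.5 CPM in N5, 88.3 and 38.8 CPM in N8, 48.4 and 26.9 CPM in P6H12, 62.6 and 25.2 CPM in P6H8 and 49.0 and 25.0 CPM in P6H7. The P14 animals outside these high values lay between 23.8 and 30.9 CPM in all 3 groups. For H2-D1 the median littermate difference was 0.28, for Nlrc5 0.46 and for Psmb8 0.10, reached by 23.2%, 5.63% and 78.8% of genes.

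H2-D1 stood apart by litter in the P14 HIE animals, although the joint test of litters on P14 did not call it with the low-count filter and all animals. Both animals of P4H1 (242.8 and 297.1 CPM) were far above both of P6H12 (126.4 and 133.4 CPM), a gap of litter means of 1.05 that 2.42% of genes reached in that group. In the hypoxia litters P6H9 had 189.1 and 296.1 CPM and P6H7 had 144.1 and 137.9 CPM.

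Other genes of the H2 region also varied among these animals. H2-Ea, the alpha chain of the class II molecule E, is known to be silent in some H2 haplotypes and was chosen here after its values were seen, as were H2-T24 and H2-Q4. No count of H2-Ea was found in the 4 P7 controls, in N8-4, in both P4H1 animals or in P6H9-15F, where 3 counts would be at most 0.0953 CPM, while the other 9 P14 animals had 7.40 to 21.1 CPM. The remaining P7 HIE animals had 0.883, 1.26 and 1.85 CPM. On P7 presence of H2-Ea did not go with the level of H2-D1: the 4 controls without it had 88.8 to 274.2 CPM of H2-D1, and N8-4, also without it, had 254.8 CPM, between the 227.9 and 265.5 CPM of HIE animals that had it. On P14 the 3 animals without H2-Ea counts were those with the highest H2-D1, 242.8, 297.1 and 296.1 CPM, against 126.4 to 201.4 CPM in the other 9. They also had 13.7 to 16.7 CPM of H2-T24 and 17.9 to 23.8 CPM of H2-Q4, both class I genes, where the others had 18.9 to 56.9 and 3.37 to 14.2 CPM. The class I gene H2-T22 did not set them apart: they had 2.39 to 2.83 CPM, and P6H8-8F, with H2-Ea, had 2.64 CPM. On P7, animals with and without H2-Ea overlapped in H2-T24 (20.5 to 38.6 against 6.25 to 33.2 CPM) and in H2-Q4 (17.1 to 20.6 against 14.1 to 28.0 CPM). H2-Q4 was lowest, at 3.37 to 6.70 CPM, in P6H7-8F, P6H12-11M, P6H12-14F and P6H8-7M, and 3 of these 4 were the P14 animals with the highest H2-K1. The alleles of these animals were not typed, and reads were mapped to a genome of another strain, C57BL/6J; the part of either in these values was not tested.

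**Figure D4:**
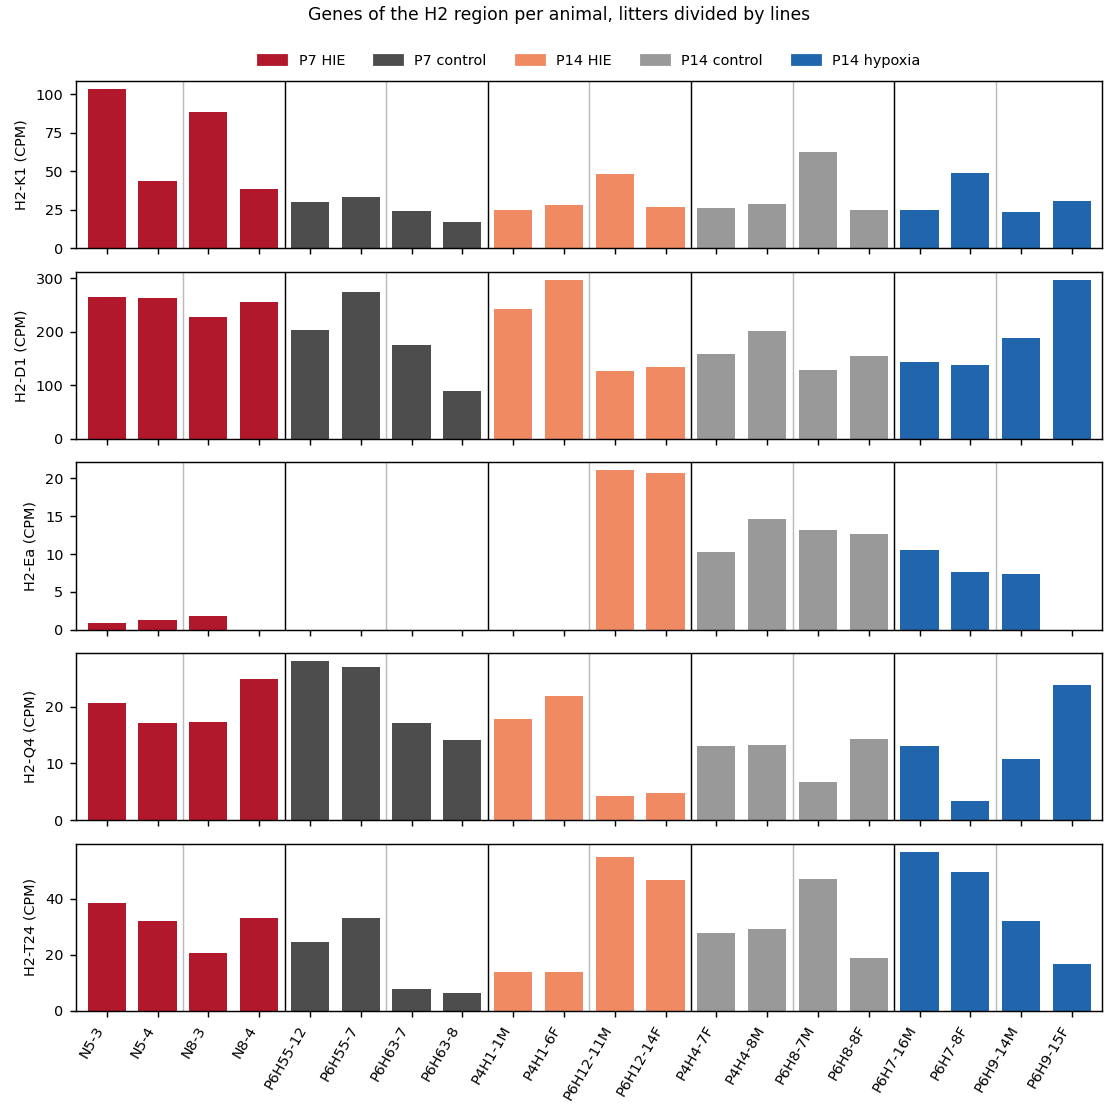
CPM of H2-K1, H2-D1, H2-Ea, H2-Q4 and H2-T24 (vertical axes, from 0) in each of the 20 animals, coloured by group; grey lines divide the litters of a group and black lines the groups. One tall and one short H2-K1 bar stand side by side in N5, N8, P6H12, P6H8 and P6H7, and on P14 the animals with no H2-Ea bar have H2-D1 of 242.8 to 297.1 CPM.

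The rest of the pathway was followed in lists of genes with known parts in it. On P7, 17 of 19 genes for peptide supply, loading and trimming had a higher mean in HIE than in control (median log2 fold change 0.33), as did 17 of 19 regulators of class I genes (median 0.48), 13 of 19 other class I and class I-like genes (0.42) and 7 of 10 class II genes (0.19), and none of them passed the test. Of all genes tested, 43.5% were above 0. Without litter P6H63 the counts were 18 of 19 (median 0.17), 18 of 19 (0.17), 12 of 19 (0.05) and 5 of 11 (-0.46), where 46.5% of all genes were above 0. Canx and Calr, chaperones that hold new heavy chains, were at 0.33 (SE 0.18) and 0.33 (SE 0.15). Ifngr1, a chain of the interferon-gamma receptor, was at 1.13 (SE 0.48) and Nfkb1, a subunit of NF-kB, at 0.66 (SE 0.24). Both lay above the median of the regulators, of which Rfxap was lower in HIE, at -0.39 (SE 0.14). Without P6H63, Canx, Calr, Ifngr1 and Nfkb1 were at 0.06, 0.17, 0.48 and 0.29. The 3 constitutive proteasome subunits had a median of -0.05, and the 80 genes tested between H2-K1 and H2-D1 on chromosome 17 one of 0.06. On P14 no gene of the lists passed in any comparison, and the medians lay between -0.25 and 0.67, both for class II genes, lower in hypoxia than in control and higher in HIE than in hypoxia.

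Of 11 class II genes, 6 passed edgeR's test as higher on P14 in the controls and 7 in HIE, and none passed as lower. Of all genes tested, 15.6% passed as higher and 17.4% as lower in the controls, and 22.8% and 23.2% in HIE. The control count includes H2-Ea, which had no count in any P7 control. Without litter P6H63 it was 8 of 11, where 3325 of 22151 genes passed as higher. In HIE, H2-Aa rose by 2.64 (SE 0.36), Cd74, the invariant chain, by 1.89 (SE 0.29) and H2-Ab1 by 2.13 (SE 0.38) on the log2 scale. Among the 19 regulators, 7 passed as lower and 3 as higher in HIE, near the share of all genes that passed (46.0%). Irf1 (-0.68, SE 0.10) and Rela (-0.56, SE 0.10) were lower and Ifngr1 (0.89, SE 0.11) was higher. Of the 19 peptide supply genes, 7 passed as lower and 4 as higher in HIE, a share not far from that of all genes. Among those lower were the cytosolic peptidases Npepps (-0.65, SE 0.07) and Thop1 (-0.77, SE 0.11) and the proteasome activator subunit Psme1 (-0.63, SE 0.11). Psmb5 and Psmb6, the constitutive counterparts of Psmb8 and Psmb9, fell in both (Psmb5 by 0.76 in control and 0.45 in HIE). The Psmb8 to Psmb5 ratio was 1.31 to 2.58 over all P14 animals.

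The genes whose levels followed the members most closely were, over the 20 animals with group means removed, Osm (Pearson r = 0.97 with the mean z-score of the 9 members), Rnf144b (0.96), Trim30a (0.95), Litaf (0.95) and Rab27a (0.95), among 21241 genes. These animals share litters and files, and the gap between P6H63 and P6H55 entered every one of the values. Over the 18 animals without P6H63 Lrp10 (0.94), Slc3a2 (0.91), L3mbtl2 (0.91) and Snrnp200 (0.90) were among the closest, and none of these 4 was among the first 5 over all 20 animals. Among the members themselves, without P6H63, Tapbp and Psmb9 went together (r = 0.89), as did Tap2 with Psmb9 (0.83) and with Tapbp (0.81) and H2-D1 with Tap1 (0.80), while H2-K1 went against Tap2 (-0.67), Tapbp (-0.64) and Psmb9 (-0.60). These correlations are a description of animals that share litters, with no test.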

How the data were processed

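Brain cells enriched with CD11b beads from 20 pups were sequenced as ribosome-depleted total RNA in 22 libraries. The authors mapped reads to GRCm39 with STAR and deposited RSEM expected counts per gene in 2 files, one for the 8 early and one for the 14 P14 libraries; whether strand was used in counting is not given in the sources used here. The 2 libraries of each of 2 animals were summed and all values rounded. Of 56691 gene IDs, 56017 matched GENCODE M39. Each comparison was fitted on all genes passing filterByExpr with edgeR 4.0.16 (R 4.3.3; TMM factors, quasi-likelihood F test) and Benjamini-Hochberg adjustment with a threshold of 0.05. Levels are CPM with TMM factors over the 20 animals, and log2 levels used a prior count of 2. Alternatives used DESeq2 1.42.0, limma 3.58.1 (voom, litter as random block), other scaling or filters, sex or name prefix as a covariate, all P14 animals together, first libraries, and left-out animals or litters; library size alone was chosen after seeing the data. The fitting code was tested on simulated data. All 9 members were named by rule, and members and lists were chosen with earlier results of these data known.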

Additional observations from a re-analysis of the deposited data

Results flagged for a closer look

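Among the 9 members in each of the 5 groups, 1 animal lay far from the other 3 of its group in 4 cases. This was judged by its gap to the nearest animal over the whole range of log2 CPM. The ratio had to exceed Dixon's 95% critical value for 4 animals, which chance passes in about 1 of 20 groups. The ratio was 0.834 for H2-K1 in P14 HIE, where P6H12-11M had 48.4 CPM against 25.1 to 28.0 CPM. For H2-K1 in P14 control it was 0.845, with P6H8-7M at 62.6 CPM against 25.2 to 29.1 CPM. In P14 hypoxia the same animal, P6H9-15F, was apart in 2 genes, as the lowest in Psmb8 (0.905; 20.9 CPM against 30.8 to 32.1 CPM) and the highest in Nlrc5 (0.961; 9.97 CPM against 2.98 to 3.13 CPM).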

How the results depend on the processing

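No paired analysis was possible because the labels carry no replicate numbers that link animals of different groups. Of 1035 alternative log2 fold changes of the members, 895 kept their direction and side of the threshold, 96 turned, 31 newly passed and 13 no longer passed. For P7 HIE against control, DESeq2 called 2 members among 3024 genes. Leaving out litter P6H55 gave 9 members among 13904 genes, and leaving out single animals gave 0 to 5 among 10 to 5588. The P7 litter test called 3 to 6 members without single animals, among 5810 to 8091 genes. The P14 litter test called 4 without the low-count filter, among 5018 genes, and 0 to 1 without single animals, among 15 to 262. Controls between the ages gave 1 member without P6H63, among 6920 genes, and 6 without P6H55, among 13390. Without single animals they gave 0 to 1, among 4855 to 8620 genes. HIE between the ages gave 1 with limma-voom (Nlrc5), among 8509 of 22579 genes, and 1 with library size alone (H2-K1), among 10546. Without single animals it gave 0 to 2, among 8992 to 11570 genes. The difference of the HIE effects gave 6 without P6H55, among 7771 genes. On P7, Tap2 and Psmb9 came to -0.25 and -0.0057 without P6H63. Without P6H55, H2-D1 in controls between the ages came to 0.35 and the Tap2 difference of HIE effects to 0.55. Over single animals left out, log2 fold changes ran from -0.00071 to 0.40 for Tap2 on P7, from -0.46 to 0.24 and from -0.46 to 0.23 for H2-K1 in P14 HIE and hypoxia against control, from -0.27 to 0.55 and from -0.64 to 0.24 for Nlrc5 in hypoxia against control and HIE against hypoxia, from -0.39 to 0.13 for H2-D1 in controls between the ages, from -0.034 to 0.13 for Tapbp in HIE between the ages, and from -0.29 to 0.11 for the Tap2 difference of HIE effects. The cause of these shifts was not tested. With single animals kept, genes called in all ran from 3 to 13904 for P7 HIE against control (3024 with DESeq2), 0 to 490, 0 to 164 and 0 to 15 for the P14 comparisons, 22 to 5018 for P14 litters (15 to 262 without single animals), 1044 to 13390 for controls between the ages and 0 to 7771 for the difference of HIE effects. Library size alone moved the median of all genes on P7 to -0.28, with all 9 members still above 0, and the split in controls between the ages from 3490 higher and 3873 lower to 2612 and 5454.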
